A study of Mus musculus with 14 samples.

Results

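The genes described here are the proteasome genes of the mouse, taken as every gene symbol that starts with Psma, Psmb, Psmc, Psmd, Psme, Psmf or Psmg followed by a digit. The pattern matched 54 of the 55335 features. Leaving out 4 pseudogenes gave 50 members. By role they were 7 subunits of the alpha ring, 4 subunits of the beta ring without an active site, the 3 constitutive active-site subunits Psmb5, Psmb6 and Psmb7, and the 3 immunoproteasome subunits Psmb8, Psmb9 and Psmb10. The others were 2 tissue-restricted core subunits (Psma8 and Psmb11), 6 ATPases and 11 non-ATPases of the regulatory particle, 3 chaperones of its base, 4 chaperones of the core, 4 genes of the 11S activator family, the activator Psme4 and the inhibitor Psmf1. Psmc3ip matched by its name only, since it encodes a recombination factor of meiosis and no proteasome subunit.

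The proteasome is the protease of the cytosol and nucleus that degrades proteins tagged with ubiquitin. Its barrel-shaped core holds the active sites inside the beta rings, and the regulatory particle at its ends recognizes, unfolds and feeds in the substrates. Interferons induce a second set of active-site subunits, which replace their constitutive counterparts in newly made particles: Psmb8 takes the place of Psmb5, Psmb9 that of Psmb6 and Psmb10 that of Psmb7. The resulting immunoproteasome, together with the 11S activator of Psme1 and Psme2, is known for making peptides for MHC class I molecules, and it is found at high levels in immune cells.

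Single cells of the whole spinal cord of P115-120 day mice were profiled with droplet-based 3′ sequencing in 14 libraries, to ask what the myeloid receptor Clec7a does in microglia under a transgene that models amyotrophic lateral sclerosis. The group SOD1G93A (3 libraries) was of strain B6SJL-Tg(SOD1*G93A)1Gur/J, which carries a mutant human SOD1 transgene. The group Clec7a-KO (4) was of strain B6.129S6-Clec7atm1Gdb/J, SOD1G93A/Clec7a-KO (4) was labelled as carrying both alterations, and nTg (3) as carrying neither. The strain names of SOD1G93A and Clec7a-KO give different genetic backgrounds, and no background was given for the other groups. Nothing in the labels says that the libraries of a group came from separate animals, so p-values measure the spread between these libraries.

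The libraries held 28819852 to 141204910 unique molecular identifiers (UMIs, counts of captured RNA molecules), and the median barcode held 5190.5 to 14886. Over all barcodes, Clec7a stood at 666 to 716 CPM (the UMIs of a gene scaled to a common total) in SOD1G93A. It was at 12.9 to 28.4 CPM in nTg and at most 2.57 CPM in either knockout group. Sod1 was at 2137 CPM or more in every library with the transgene and at most 230 CPM in the others. Xist was high in 2 of 3 nTg, 1 of 4 Clec7a-KO, 1 of 4 SOD1G93A/Clec7a-KO and 0 of 3 SOD1G93A libraries. The labels also number the libraries, and SOD1G93A took numbers 1, 5 and 6 while nTg took 8, 9 and 12, so this number and the transgene cannot be told apart there. Any pair of libraries shared at most 44 barcodes. Cells were assigned to classes by marker genes, and a class is called here by the cell type its markers resemble.

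In microglia-like cells most proteasome genes were at higher levels with the transgene, whether Clec7a was present or not. UMIs were summed per library and compared with edgeR's quasi-likelihood test, which scaled libraries by TMM (a factor that holds the bulk of genes level) and adjusted p by Benjamini-Hochberg over 16715 genes. Of the 49 members tested (Psmb11 was too low), 36 rose and 0 fell in SOD1G93A against nTg, where 19.7% of all genes tested rose and 13.1% fell. In SOD1G93A/Clec7a-KO against Clec7a-KO, 41 rose and 0 fell, where 25.7% of all genes rose and 20.9% fell. These comparisons share no library, and 34 members rose in both, which is 94.4% of the first list and 82.9% of the second. The share of all genes that rose in both is not given here, so this overlap has no background beside it. The median log2 fold change of the members was 0.64 and 0.69, and that of all genes was 0.01 in both. In 42 members every SOD1G93A library lay above every nTg library (29.2% of all genes did), and in 34 every SOD1G93A/Clec7a-KO library lay above every Clec7a-KO library (21.2% of all genes did). Fewer rose in the first comparison without SOD1G93A replicate 1 (22, where 15.2% of all genes rose) and with the Xist level as a covariate (18, where 13% did). The median share of mitochondrial UMIs over a library's barcodes, a sign of cell quality, moved with the transgene and did not overlap in either comparison. It was 1.47% to 2.15% in SOD1G93A against 2.61% to 4.46% in nTg, and 0.889% to 1.58% in SOD1G93A/Clec7a-KO against 1.898% to 4.60% in Clec7a-KO. Taken over all barcodes, this share also depends on the mix of cell classes. In nTg replicate 1, 2712 of 2771 microglia-like but 82 of 611 astrocyte-like cells had at most 5% mitochondrial UMIs. In cells with at most 5% mitochondrial UMIs, 35 and 41 members rose, where 19.6% and 25.6% of all genes did. The 6 members called in neither were Psma8, Psmc6, Psmd5, Psme2b, Psme4 and Psmg2, named here after their values were seen.

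The size of this difference depended on the scaling. TMM factors were 0.85 to 0.93 in SOD1G93A and 0.77 to 0.89 in SOD1G93A/Clec7a-KO, but 1.20 to 1.24 in nTg and 1.04 to 1.21 in Clec7a-KO. Scaled by total UMIs alone, the median of all genes moved to −0.45 and −0.51, and the members' medians were 0.19 and 0.18. On that scale 9 members rose and 2 (Psme2b and Psmg2) fell in the first comparison, where 8.94% of all genes rose and 34.8% fell. In the second, 11 rose and 2 (Psmd5 and Psme2b) fell, where 11.4% rose and 46.9% fell. The 8 members that rose under both scalings in both comparisons were Psma7, Psmb1, Psmb6, Psmb8, Psmb9, Psmd2, Psmd8 and Psme2. The share of all genes that met the same conditions is not given here, so these 8 have no background beside them. Of the members called higher with TMM, 6 in each comparison changed sign under total UMIs, Psme3 among them. As a share of all microglial UMIs, the members without Psmc3ip summed to 3547 ± 92.4 CPM (SD, n = 3) in nTg, 3600 ± 164 (n = 4) in Clec7a-KO, 4350 ± 410 (n = 3) in SOD1G93A and 4448 ± 151 (n = 4) in SOD1G93A/Clec7a-KO. Values below are on the TMM scale unless said otherwise.

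Among the active-site subunits the largest difference was in Psmb6, the constitutive subunit that carries the caspase-like site. Psmb6 (ENSMUSG00000018286.6, chr11:70525367-70527858, GRCm38, plus strand) stood at 346, 307 and 263 CPM in the 3 SOD1G93A libraries and at 95.5, 99.9 and 90.5 CPM in nTg. It stood at 323, 453, 345 and 280 CPM in SOD1G93A/Clec7a-KO and at 109, 96.0, 90.3 and 91.8 CPM in Clec7a-KO. Every library with the transgene lay above every library without it, with no overlap. Psmb6 rose by 1.68 ± 0.18 log2 units (SE; edgeR, adjusted p = 9.9e-06) with Clec7a intact and by 1.86 ± 0.15 (adjusted p = 5.6e-07) without it. By total UMIs the changes were 1.23 and 1.34.

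Psmb5, which carries the chymotrypsin-like site, differed less. Its level was 121, 92.1 and 86.7 CPM in SOD1G93A and 50.2, 69.6 and 59.5 CPM in nTg, a rise of 0.74 ± 0.22 (edgeR, adjusted p = 0.017). It was 96.7, 137, 147 and 139 CPM in SOD1G93A/Clec7a-KO and 64.0, 60.6, 59.5 and 95.6 CPM in Clec7a-KO, a rise of 0.90 ± 0.19 (adjusted p = 0.0015). The groups did not overlap in either comparison, although the highest Clec7a-KO library came close to the lowest library with both alterations. The first call was lost without SOD1G93A replicate 1 (0.52, adjusted p = 0.095), without nTg replicate 1 (0.64, adjusted p = 0.072) and with Xist as a covariate (0.61, adjusted p = 0.098), and by total UMIs neither comparison passed (0.30 and 0.39). Psmb7, with the trypsin-like site, stood at 104, 109 and 100 CPM in SOD1G93A and 65.8, 73.5 and 65.0 CPM in nTg (0.61 ± 0.21, edgeR, adjusted p = 0.035). Leaving out any single library of either group ended that call (adjusted p = 0.058 to 0.11), as did Xist as a covariate (0.52, adjusted p = 0.16). In SOD1G93A/Clec7a-KO it was at 100, 107, 72.6 and 64.7 CPM, which overlapped the 70.5, 75.7, 71.6 and 44.6 CPM of Clec7a-KO (0.39 ± 0.18, edgeR, adjusted p = 0.087).

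All 3 immunoproteasome subunits rose in both comparisons. Psmb8 (ENSMUSG00000024338.15, chr17:34197721-34201454, plus strand), the counterpart of Psmb5, was at 369, 354 and 294 CPM in SOD1G93A and at 144, 169 and 159 CPM in nTg. It was at 320, 375, 379 and 361 CPM in SOD1G93A/Clec7a-KO and at 178, 158, 141 and 185 CPM in Clec7a-KO. No library with the transgene overlapped one without it, and the groups with the transgene overlapped each other. The rise was 1.11 ± 0.15 (edgeR, adjusted p = 9.9e-05) and 1.12 ± 0.13 (adjusted p = 1.3e-05), and 0.66 and 0.60 by total UMIs. Psmb9, the counterpart of Psmb6, lies beside Psmb8 on chromosome 17 with exons that overlap Tap1 on the opposite strand, so its counts are uncertain where strand was not used. It was at 83.8, 92.2 and 72.6 CPM in SOD1G93A and 39.9, 46.8 and 45.7 CPM in nTg, a rise of 0.91 ± 0.14 (edgeR, adjusted p = 0.00023). It rose by 0.84 ± 0.12 (adjusted p = 7.2e-05) without Clec7a, again with no overlap. Psmb10, the counterpart of Psmb7, changed least, from 75.4 ± 4.90 CPM (SD, n = 3) in nTg to 117 ± 19.4 (n = 3) in SOD1G93A and from 81.1 ± 9.53 (n = 4) in Clec7a-KO to 128 ± 19.7 (n = 4) with both alterations. Its changes of 0.63 ± 0.16 (edgeR, adjusted p = 0.0083) and 0.65 ± 0.14 (adjusted p = 0.0018) did not pass by total UMIs (0.19 and 0.14). The first was lost without SOD1G93A replicate 1 (0.43, adjusted p = 0.066) and with Xist as a covariate (0.49, adjusted p = 0.074).

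**Figure D1:**
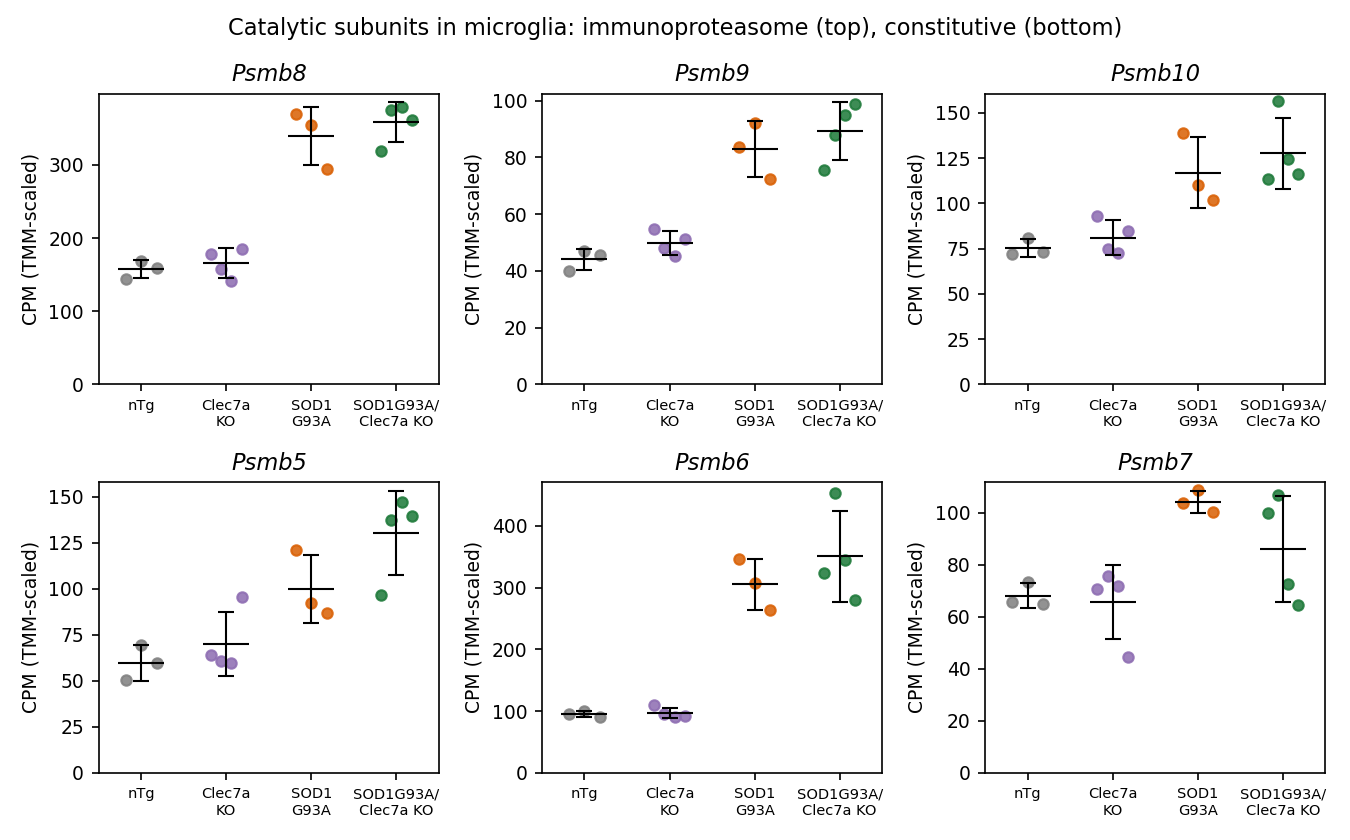
Level of the 3 immunoproteasome subunits (top) and their constitutive counterparts (bottom) in microglia-like cells, in TMM-scaled CPM on axes from 0, one point per library with the group mean and SD. Psmb6 and Psmb8 show no overlap between libraries with and without the transgene, while Psmb7 in SOD1G93A/Clec7a-KO spans 64.7 to 107 CPM and overlaps Clec7a-KO.

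Promoter sequences are shown for the constitutive subunit that changed most and for its neighbour in role, because each holds the core of an antioxidant response element, the motif bound by Nfe2l2 and Nfe2l1, which are known regulators of proteasome genes. The sequences are from RefSeq on GRCm38.p6. That of Psmb6, chr11:70525107-70525356 on the plus strand, runs up to the RefSeq start, and that of Psmb5, chr14:54618023-54618245 on the minus strand, stops 27 bases short of it. Capitals mark the core TGACNNNGC.
Psmb6: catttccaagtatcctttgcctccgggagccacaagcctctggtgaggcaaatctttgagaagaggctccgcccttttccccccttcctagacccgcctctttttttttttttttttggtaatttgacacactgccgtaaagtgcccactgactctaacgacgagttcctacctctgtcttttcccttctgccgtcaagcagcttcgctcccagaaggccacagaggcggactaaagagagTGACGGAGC
Psmb5: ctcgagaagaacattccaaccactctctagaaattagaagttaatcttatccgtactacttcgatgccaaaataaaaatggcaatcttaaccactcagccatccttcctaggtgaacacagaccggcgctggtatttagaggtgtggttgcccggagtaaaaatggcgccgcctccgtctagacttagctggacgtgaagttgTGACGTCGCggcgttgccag
The interferon-activated GAS motif TTCNNNGAA, in capitals, was found for Psmb8 at chr17:34198088-34198116 on the plus strand. The motif begins 97 bases before the start RefSeq gives, but lies inside the gene as GENCODE draws it, whose first transcript starts farther upstream.
Psmb8: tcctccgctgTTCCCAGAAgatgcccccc
Windows of 250 bases before to 50 bases after the start were matched for 42 of 50 members and searched on both strands. TGACNNNGC was found in 6 members (Psmb5, Psmb6, Psmc6, Psmd9, Psmd12 and Psme4) and in 13.99% of all 27025 genes. TTCNNNGAA was found in 3 (Psmb8, Psmd2 and Psmg1) and in 9.55% of genes. The core of the interferon-stimulated response element, GAAA followed after 2 free bases by GAAA, was found in 5 (Psmb3, Psmd4, Psmd9, Psme1 and Psmg4) and in 3.99% of genes. These matches describe letters in a window and are neither shown to be sites nor tied to the levels here.

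Because both subunits of a pair come from the same library, their ratio does not depend on the scaling. This comparison was chosen after the values above were seen. The log2 ratio of Psmb9 to Psmb6 UMIs was −2.05, −1.74 and −1.86 in SOD1G93A and −1.26, −1.09 and −0.99 in nTg. It was −2.10, −2.36, −1.86 and −1.50 in SOD1G93A/Clec7a-KO and −0.993, −1.003, −0.995 and −0.840 in Clec7a-KO. All 7 libraries with the transgene were below all 7 without it: the immunoproteasome subunit rose, but its constitutive counterpart rose more. The mean difference over both Clec7a genotypes was −0.88 (exact permutation test within genotypes, 1400 regroupings, two-sided p = 0.0014, adjusted over 3 ratios p = 0.0043). The ratio of Psmb8 to Psmb5 went the other way, by 0.36 with Clec7a intact and 0.21 without it (mean 0.29, exact permutation p = 0.013, adjusted p = 0.019). Its libraries did not overlap in SOD1G93A (1.61 to 1.94) and nTg (1.28 to 1.52), but did in SOD1G93A/Clec7a-KO (1.37 to 1.73) and Clec7a-KO (0.95 to 1.48). The ratio of Psmb10 to Psmb7 differed by 0.01 and 0.26 (mean 0.13, exact permutation p = 0.36, adjusted p = 0.36), with libraries from −0.02 to 0.92 in Clec7a-KO alone. Within 1 genotype the smallest p that these group sizes allow is 0.10 with Clec7a intact and 0.029 without it.

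**Figure D2:**
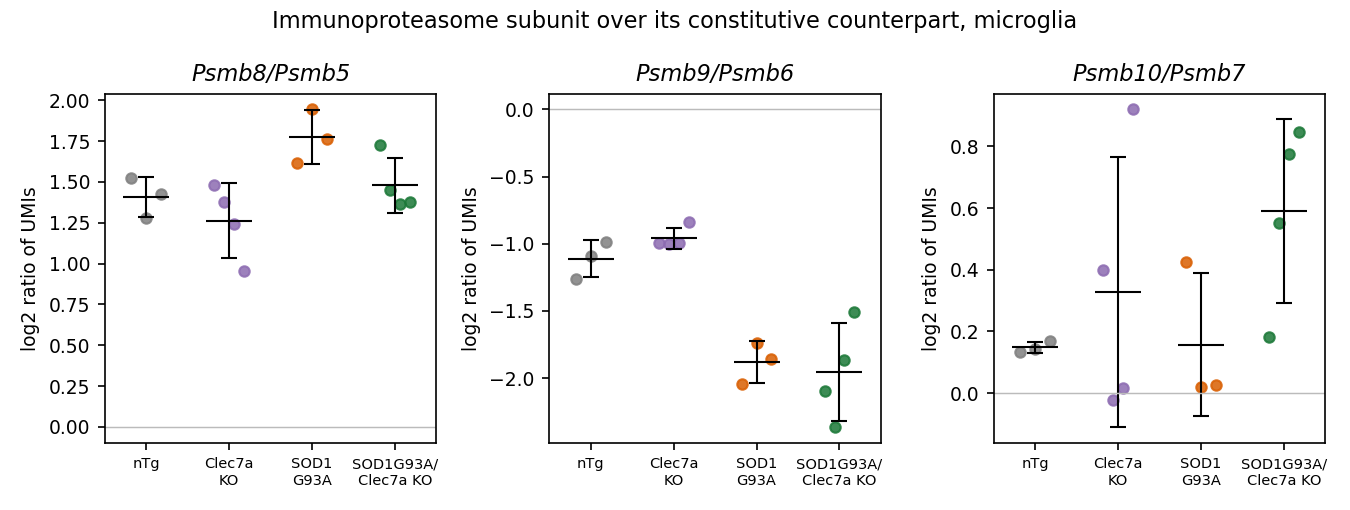
Log2 ratio of the UMIs of each immunoproteasome subunit to those of its constitutive counterpart in microglia-like cells, one point per library with the group mean and SD, each panel on its own axis. Psmb9 over Psmb6 lies at −1.50 or below in every library with the transgene and at −1.26 or above in every other.

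The 11S activator, a cap that opens the core without ubiquitin recognition, rose with the immunoproteasome. Psme1 stood at 258, 273 and 280 CPM in SOD1G93A and at 159, 136 and 163 CPM in nTg, a rise of 0.83 ± 0.23 (edgeR, adjusted p = 0.013) that was lost without nTg replicate 2 (adjusted p = 0.055) and by total UMIs (0.37, adjusted p = 0.12). It stood at 272, 315, 441 and 470 CPM in SOD1G93A/Clec7a-KO and at 168, 147, 144 and 244 CPM in Clec7a-KO, a rise of 1.09 ± 0.20 (adjusted p = 0.00054). Neither comparison overlapped, and the highest libraries of both knockout groups were those numbered 13, 15 and 16 in the labels. Psme2, its partner in the ring, rose by 0.94 ± 0.21 (edgeR, adjusted p = 0.0031) and 1.20 ± 0.18 (adjusted p = 0.00010), and also by total UMIs (0.49 and 0.68). Psme3, which forms the nuclear form of this cap, rose by 0.38 ± 0.12 (edgeR, adjusted p = 0.023) and 0.49 ± 0.10 (adjusted p = 0.0014) with TMM, but by total UMIs it was at −0.07 and −0.03. Its first call was lost without any one nTg library or SOD1G93A replicate 1 or 3 (adjusted p = 0.050 to 0.088). The same call was lost with Xist as a covariate (0.36, adjusted p = 0.089). Psme2b, a near copy of Psme2 whose counts are uncertain for that reason, was at −0.22 and −0.40 and not called. Psme4, an ATP-independent activator, differed by 0.27 ± 0.25 (adjusted p = 0.44) and 0.04 ± 0.22 (adjusted p = 0.90). Psmf1, which inhibits the core in the test tube, differed by 0.43 ± 0.26 (adjusted p = 0.23) and rose by 0.74 ± 0.22 (adjusted p = 0.014) without Clec7a, a call lost without SOD1G93A/Clec7a-KO replicate 3 (adjusted p = 0.056) or Clec7a-KO replicate 2 (adjusted p = 0.050).

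The libraries numbered 13, 15 and 16 (SOD1G93A/Clec7a-KO replicates 3 and 4 and Clec7a-KO replicate 4) stood apart from the rest of their groups in several members. They were the 3 lowest of the 8 knockout libraries in Psme4 (19.3, 19.6 and 15.6 CPM against 25.3 to 32.7) and each was the highest of its group or next to it in Psme1 and the lowest or next to it in Psmb7. Without these 3 libraries, 41 and 42 members rose in the 2 transgene comparisons and 0 fell, where 24.6% of all genes rose in each and 16.9% and 17.4% fell. What sets these libraries apart was not tested.

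On the TMM scale most structural subunits of the core rose, where 19.7% and 25.7% of all genes did. In the alpha ring, which forms the gate, 6 of 7 members rose in SOD1G93A and 7 of 7 in SOD1G93A/Clec7a-KO. Psma7 led, at 223, 191 and 192 CPM in SOD1G93A against 107, 102 and 98.4 CPM in nTg (0.98 ± 0.14, edgeR, adjusted p = 0.00012), with a rise of 1.08 ± 0.12 without Clec7a. Psma3 was the exception in the first comparison (0.36 ± 0.17, adjusted p = 0.12). All 4 beta subunits without an active site rose in both. By total UMIs, of these 11 subunits only Psma1, Psma7 and Psmb1 rose in the first comparison and Psma7, Psmb1 and Psmb3 in the second, where 8.94% and 11.4% of genes rose. Psmb1 stood at 278, 281 and 228 CPM in SOD1G93A against 143, 131 and 116 CPM in nTg, and Psmb3 was at 142, 168, 225 and 219 CPM in SOD1G93A/Clec7a-KO against 87.2, 77.7, 70.3 and 145 CPM in Clec7a-KO. Psmb1 did not overlap between groups, whereas the highest Clec7a-KO library for Psmb3 lay just above the lowest library with both alterations.

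In the regulatory particle most subunits of both kinds rose on the TMM scale, against 19.7% and 25.7% of all genes. Of the 6 ATPases, which unfold the substrate, 4 rose with Clec7a intact and 5 without it, and Psmc6 passed in neither (0.30 and 0.23). Of the 11 non-ATPases, 9 and 11 rose. By total UMIs 0 of the 6 ATPases and 2 of the 11 non-ATPases (Psmd2 and Psmd8) rose in each comparison. Psmd8, a lid subunit, changed most, at 216, 180 and 155 CPM in SOD1G93A against 88.6, 99.0 and 84.8 CPM in nTg (1.01 ± 0.15, edgeR, adjusted p = 0.00018) and with a rise of 1.08 ± 0.13 without Clec7a. Psmd2, the large scaffold of the base, rose by 0.87 in both. Among the base chaperones, Psmd9 and Psmd10 rose in both comparisons and Psmd5 in neither (0.11 and 0.07). Of the 4 chaperones that assemble the core, Psmg3 rose in the first comparison and Psmg1 and Psmg4 in the second. Differences between these role counts were not tested.

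**Figure D3:**
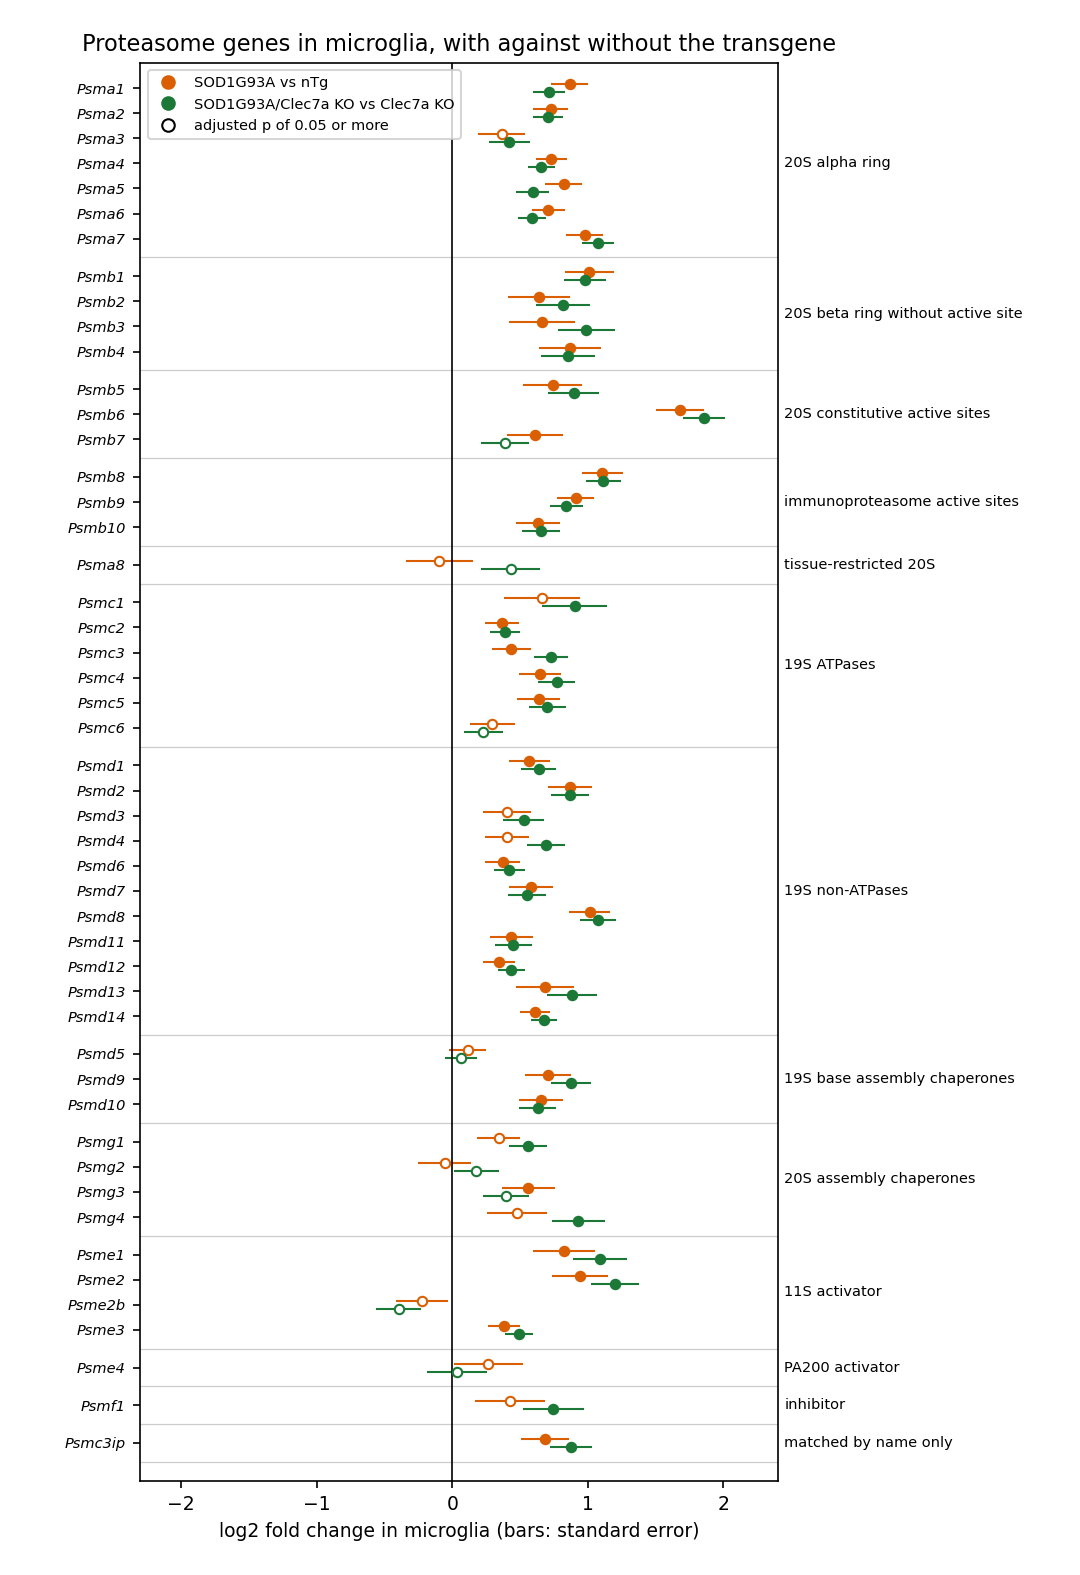
Log2 fold change of the 49 tested members in microglia-like cells on the TMM scale, with bars of 1 standard error, grouped by role; open circles did not pass. Most points lie to the right of 0 in both comparisons, with Psmb6 farthest; scaled by total UMIs, the members' medians fall to 0.19 and 0.18 and 6 called members a comparison, Psme3 among them, cross 0.

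Loss of Clec7a left no member past the threshold in microglia-like cells. Between SOD1G93A/Clec7a-KO and SOD1G93A, edgeR and DESeq2 each called 0 members (4 and 5 at an unadjusted p under 0.05), where edgeR called 0.0179% of all genes and put 11.3% under an unadjusted 0.05. The lowest adjusted p by edgeR was 0.44. In this comparison 38 of 49 log2 fold changes were above 0, with a median of 0.16 (all genes 0.01). Psmb8 differed by 0.08 (95% confidence interval −0.22 to 0.38), Psmb9 by 0.11 (−0.17 to 0.38), Psmb10 by 0.13 (−0.20 to 0.45) and Psmb6 by 0.20 (−0.15 to 0.55). Psmf1 (0.71) and Psmb3 (0.66) were the members at the lowest unadjusted p, and in both all 4 libraries of SOD1G93A/Clec7a-KO were above the 3 of SOD1G93A. Such libraries without overlap were found in 4 members upward and 2 downward, against 4.28% and 4.65% of all genes; named after their values were seen, the others were Psme3 and Psmg2 upward and Psma5 and Psme4 downward. Between Clec7a-KO and nTg both tools called 0 members (0 at an unadjusted p under 0.05). Of all genes, edgeR called 0.0299% and put 2.43% under an unadjusted 0.05. There 39 of 49 log2 fold changes were above 0, with a median of 0.10 (all genes 0.03). In nTg, Clec7a itself stood at 12.9 to 28.4 CPM over all barcodes. The difference between the transgene effects with and without Clec7a, tested as an interaction, also gave 0 members (0 at an unadjusted p under 0.05, by edgeR and by DESeq2; edgeR called 0% of all genes, 2.05% unadjusted), with 0.01 (−0.41 to 0.43) for Psmb8 and 0.18 (−0.31 to 0.67) for Psmb6.

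The microglia-like class was made of different clusters in the groups. Clusters 0, 1 and 2, led by genes such as Spp1, Gpnmb and Trem2, held on average 53.1%, 11.3% and 21.4% of it in SOD1G93A and 28.4%, 28.4% and 27.3% in SOD1G93A/Clec7a-KO. Cluster 5 held 6.18% and 2.15% in these groups and 10.7% and 7.47% in nTg and Clec7a-KO. Clusters 7 and 23, led by Cx3cr1, P2ry12 and Tmem119, held means of 30.8% and 55.9% in nTg and 67.9% and 20.5% in Clec7a-KO. Single libraries set these means: cluster 7 held 4.13% to 82.5% in nTg and 4.54% to 91.5% in Clec7a-KO, and cluster 23 held 0.0432% to 86.9% and 0% to 81.4%. Cluster 23 was set apart from 7 by Xist. As plain CPM, Psmb8 averaged 354 in the dividing cluster 4 (8 libraries), 329 in cluster 5 (14), 294 in cluster 1 (7), 275 in cluster 0 (12), 274 in cluster 2 (11), 219 in cluster 7 (14) and 189.9 in cluster 23 (4), and was 271 in the 1 library of cluster 3. Psmb6 averaged 329, 196, 305, 282, 182, 135 and 104 in the same order, with 151 in cluster 3. These means rest on different libraries, all of them with the transgene in cluster 1 and 7 of 8 in cluster 4, so cluster and group cannot be told apart in them. When the comparison was repeated inside single clusters, a choice made after seeing the data, little passed. In cluster 7, 0 of 49 members were called in SOD1G93A (3 libraries) against nTg (2), where 0.529% of genes rose. There 40 of 49 log2 fold changes were above 0 with a median of 0.23 (all genes −0.01). In SOD1G93A/Clec7a-KO (3) against Clec7a-KO (4) only Psmb6 was called (0.78 ± 0.17, edgeR, adjusted p = 0.030), where 1.6% of genes rose. The members' median was 0.22 (all genes −0.02), with 40 of 49 above 0. In cluster 2, SOD1G93A/Clec7a-KO against Clec7a-KO gave a members' median of 0.16 (all genes 0.05), with 35 of 49 above 0. There 0 were called (0.104% of genes rose). In cluster 5 the members' median was −0.15 and −0.02 (all genes 0.03 and 0.003), with 15 and 23 of 47 above 0. There 1 (Psme2b, 2.25 ± 0.48) and 0 were called (6.84% and 5.44% of genes rose). Fewer cells and libraries entered these fits, so they differ from the class in depth as well.

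Genes that work with the proteasome, from lists that were not part of the symbol rule, moved in part with it. Of 11 partners, 5 rose with Clec7a intact and 7 without it. Pomp, the chaperone that drives assembly of the core, rose by 0.68 and 0.75, and Usp14, a deubiquitinase of the regulatory particle, rose by 0.66 and 0.74 (edgeR, adjusted p = 0.0016 and 0.00015 for Pomp). Nfe2l2 rose by 0.78 and 0.91. Akirin2, which carries proteasomes into the nucleus, fell by 0.65 and by 0.82 on the log2 scale. Of 9 genes that supply ubiquitin or handle ubiquitin-tagged proteins, 1 (Uba1) and 4 (Uba1, Rps27a, Sqstm1 and Vcp) rose and 1 fell in each comparison, where 19.7% and 25.7% of all genes rose and 13.1% and 20.9% fell. Of 13 genes of MHC class I loading, 11 rose in each comparison and 0 fell, with Nlrc5, the activator of class I genes, at 2.12 and 1.63 and Tap1 at 1.03 and 1.05. Of 21 interferon pathway genes, 12 and 13 rose and 1 (Ifngr1) fell in each. Of 22 genes induced by tissue dissociation, in microglia-like cells 8 and 14 fell and 1 (Hspe1) rose in each. Their part in the members' levels was not tested.

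The immunoproteasome subunits were at widely different levels in the cell classes. With all classes scaled together, Psmb8 averaged 618 ± 237 CPM (SD, n = 14 libraries) in T and NK-like cells, 404 ± 91.8 in border-associated macrophage-like cells, 390 ± 142 in microglia-like cells and 190 ± 33.7 in endothelial-like cells. It averaged 46.6 ± 23.8 CPM in mural-like, 34.3 ± 29.5 in astrocyte-like, 23.9 ± 19.5 in neuron-like, 19.3 ± 14.7 in OPC-like (oligodendrocyte precursor) and 18.6 ± 11.97 in ependymal-like cells. The first 3 classes overlapped one another over libraries, as did the last 5. Psmb5 stayed between 106 ± 21.0 CPM in border-associated macrophage-like and 219 ± 32.3 in OPC-like cells. Against microglia-like cells of the same libraries (edgeR with a term per library, 14 libraries), Psmb8 was lower in ependymal-like cells (−4.55 ± 0.21 log2 units), in astrocyte-like cells (−3.86 ± 0.21) and in endothelial-like cells (−0.90 ± 0.18, adjusted p = 1.3e-05). Psmb9 was at −3.86 and −3.65 in the first 2 and at −0.07 (adjusted p = 0.67) in endothelial-like cells. Psmb10 was at −3.53 in ependymal-like but only −1.18 in astrocyte-like cells, and Psme1 at −2.55 and −2.52. These differences of ependymal-like and astrocyte-like cells kept their sign and their call by total UMIs (Psmb8 −3.82 and −3.18, Psmb9 −3.13 and −2.97, Psmb10 −2.81 and −0.51, Psme1 −1.81 and −1.84). Libraries of the 4 groups enter these values together, and microglial levels differed with the transgene as given above.

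Over all 49 members, 22 were higher and 10 lower in endothelial-like than in microglia-like cells, where 37.9% and 39.6% of genes were. In ependymal-like cells 11 were higher and 26 lower (45.3% and 42.1% of genes), and in astrocyte-like cells 3 and 36 (42.7% and 43.8%). By total UMIs the split was 43 and 1 (53.5% and 27.1% of genes), 38 and 8 (62.9% and 26.2%), and 30 and 11 (58.6% and 27.8%), and the median of all genes moved by 0.45 to 0.78, so the direction of many members between classes depends on the scaling. The assembly factors Psmd9 and Psmd5 were higher in ependymal-like cells at 1.31 ± 0.08 and 1.24 ± 0.07, and at 2.06 and 1.97 by total UMIs. Psmc3ip, the meiotic factor matched by name, averaged 72.3 CPM in ependymal-like and 5.09 CPM in microglia-like cells (3.82 ± 0.10). Psma8, a subunit known from testis, averaged 6.64 CPM in endothelial-like and 3.84 CPM in microglia-like cells, and 0.27 CPM in astrocyte-like and 0.094 CPM in ependymal-like cells. Psmb11, the thymus-specific subunit, had 19 UMIs in all microglia-like cells and was not tested.

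**Figure D4:**
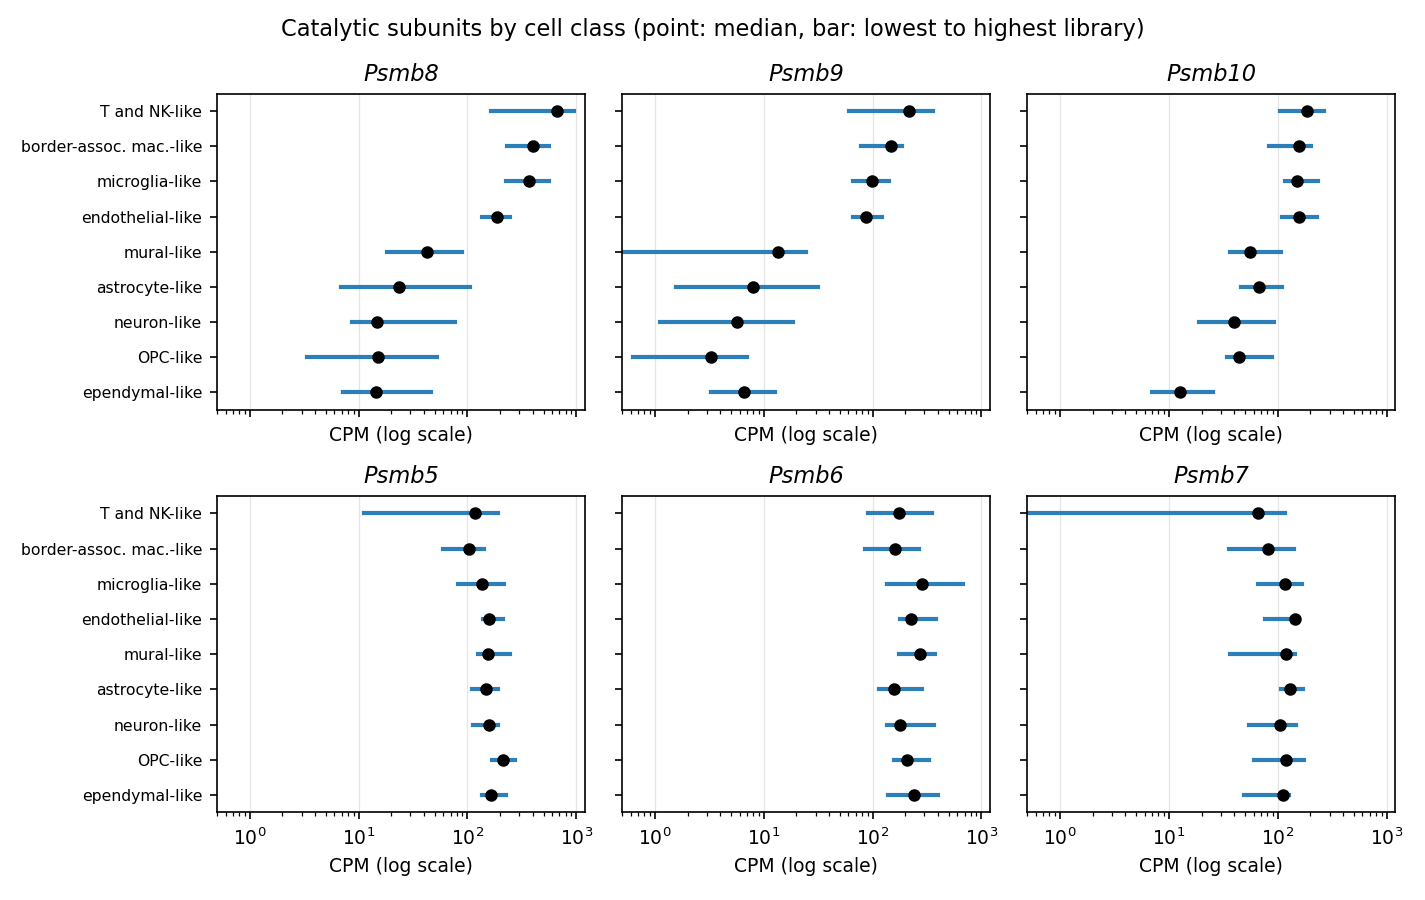
CPM of the 6 inducible and constitutive active-site subunits by cell class, scaled over all classes, on a log axis; points are medians over 14 libraries and bars run from the lowest to the highest library, with values of 0 drawn at the left edge. Psmb8 and Psmb9 span more than an order of magnitude between classes, while Psmb5, Psmb6 and Psmb7 stay close together. Psmb10 also spans more than an order of magnitude, from ependymal-like to T and NK-like cells.

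Outside microglia-like cells, only endothelial-like, ependymal-like and astrocyte-like cells were fitted. Members were called in astrocyte-like and, for few members, ependymal-like cells. The other classes were not tested, though Psmb8 differed there as well. With all classes scaled together, it was at 4.63 to 8.55 CPM in OPC-like cells of nTg and 25.3 to 43.5 CPM in SOD1G93A. In mural-like cells it was at 18.3 to 28.4 and 58.0 to 68.2 CPM. Border-associated macrophage-like cells overlapped without Clec7a (331 to 413 CPM in Clec7a-KO, 367 to 492 CPM in SOD1G93A/Clec7a-KO). Of 12 microglial marker genes, 11 in OPC-like and 12 in mural-like cells also had a higher mean with the transgene. The part of such microglial UMIs in the Psmb8 levels of these classes was not tested. In endothelial-like cells, which have the highest immunoproteasome level outside the immune classes, 0 of 49 members were called in either transgene comparison by edgeR or DESeq2 (2 and 3 at an unadjusted p under 0.05 by each tool), where 0.591% and 0.75% of genes rose, 0% and 0.0379% fell, and 5.74% and 10.3% had an unadjusted p under 0.05. This class too lay in different clusters by library: cluster 14 held 97.7% to 99.3% of it in SOD1G93A and 14.97% to 99.9% in nTg, and cluster 15 held 0% to 0.133% and 0% to 85.03%. In SOD1G93A/Clec7a-KO and Clec7a-KO, cluster 14 held like means (58.9% and 58.3%) and single libraries differed, with cluster 13 at 1.19% to 85.3% and 0.104% to 80.99%. Psmb8 there was at 212, 223 and 187 CPM in SOD1G93A and 171, 123 and 167 CPM in nTg (0.43 ± 0.16, adjusted p = 0.59). The ependymal-like class also lay in different clusters. Cluster 18 held 100% of it in SOD1G93A and 6.13% to 99.6% (mean 38.2%) in nTg. Cluster 20 held 0.13% to 93.9% (mean 61.7%) in nTg, so single libraries set these nTg means. Xist also differed between the nTg libraries (1151, 0.443 and 1420 CPM over all barcodes). Its part in the shares of clusters 15 and 20 was not tested. In ependymal-like cells Psmb8 rose by 1.83 ± 0.32 (edgeR, adjusted p = 0.0050), the only member of 48 called, where 1.01% of genes rose and 0.0391% fell. It stood at 52.4, 29.3 and 22.96 CPM in SOD1G93A and 8.08, 10.3 and 8.46 CPM in nTg. Without Clec7a, Psmb8 (1.37 ± 0.29, adjusted p = 0.018) and Psmb10 (1.04 ± 0.23, adjusted p = 0.028) rose, where 1.4% of genes rose and 0.195% fell. Psmb8 was at 24.6, 41.9, 23.5 and 14.99 CPM in SOD1G93A/Clec7a-KO and 17.5, 11.7, 7.22 and 10.1 CPM in Clec7a-KO, which overlapped. The lowest of the former, replicate 4, held only 28 ependymal-like cells and 254161 UMIs. Both comparisons gave 0 members with Xist as a covariate (0.182% and 0.769% of genes rose), and the second gave 0 without the libraries numbered 13, 15 and 16 (0.809%). It gave 0 without SOD1G93A/Clec7a-KO replicate 2 or Clec7a-KO replicate 2 or 3, 1 without SOD1G93A/Clec7a-KO replicate 1 or Clec7a-KO replicate 4, and 4 without Clec7a-KO replicate 1, which also raised the first to 2 (0.633% to 2.19% of genes rose in these fits of the second and 1.29% in that of the first).

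In astrocyte-like cells 21 of 48 members rose and 0 fell in SOD1G93A against nTg, where 17.6% of genes rose and 15.3% fell, and 14 rose and 0 fell in SOD1G93A/Clec7a-KO against Clec7a-KO, where 18.5% rose and 15.5% fell. Of the 22 genes induced by tissue dissociation, 15 and 17 also rose in this class and 0 fell (median 1.39 and 1.84), and their part in the members' levels was not tested. The 9 members that rose in both are 42.9% of the first list and 64.3% of the second, and the share of all genes that did so is not given here. Psmb8 led both comparisons, at 75.4, 33.5 and 44.2 CPM in SOD1G93A against 9.97, 9.23 and 6.63 CPM in nTg and at 64.4, 116, 30.7 and 59.5 CPM in SOD1G93A/Clec7a-KO against 16.5, 11.3, 10.3 and 17.0 CPM in Clec7a-KO. Replicate 4 of SOD1G93A/Clec7a-KO (59.5 CPM) held only 35 astrocyte-like cells and 145247 UMIs. No library with the transgene overlapped one without it, and the rise was 2.54 ± 0.37 (edgeR, adjusted p = 5.5e-05) and 2.36 ± 0.32 (adjusted p = 2.4e-05). Psmb9 rose by 2.23 and 1.96, Psmb10 by 0.95 and 0.67, Psme1 by 0.92 and 1.04 and Psme2 by 1.02 and 1.18. Of the 3 constitutive active-site subunits, 2 (Psmb6 and Psmb7) rose in the first comparison and 1 in the second. Their changes ran from 0.41 to 0.72 and from 0.11 to 0.60. Psmb5 passed in neither (0.50 and 0.47, edgeR, adjusted p = 0.063 and 0.053). Loss of Clec7a gave 0 members in endothelial-like, ependymal-like and astrocyte-like cells by edgeR and by DESeq2 with and without the transgene (0 to 4 at an unadjusted p under 0.05). Of all genes, 6.93%, 7.71% and 8.49% had such a p in these classes with the transgene and 1.46%, 1.74% and 2.37% without it. Of all genes, edgeR called 0.00758%, 0.0261% and 0.0155% in these classes with the transgene and 0%, 0.0261% and 0% without it. The first count of astrocyte-like cells was 6 with Xist as a covariate (9.77% of genes rose) and 13 without nTg replicate 3 (13.2%). The second was 6 without SOD1G93A/Clec7a-KO replicate 2 (13.3%), 9 without Clec7a-KO replicate 2 (16.4%) and 8 without Clec7a-KO replicate 3 (16%). In cells with at most 5% mitochondrial UMIs, 40 members were tested and 11 rose and 1 (Psme4) fell in the first comparison (11.6% and 12.4% of genes) and 5 rose in the second (12.4% of genes). Cluster 17, led by S100a6, Gfap and C3, held 49.8% and 41.8% of the class in the groups with the transgene and 6.18% and 6.90% in the others. Cluster 25 held 0% to 87.99% of it in nTg (mean 57.8%), 0% to 85.1% in Clec7a-KO (mean 21.3%) and 0% with the transgene. Single libraries set these means, and Xist differed between libraries as well. Over all barcodes it was at 1151 and 1420 CPM in nTg replicates 1 and 3 and at 1404 CPM in Clec7a-KO replicate 3. It was at 562 CPM in SOD1G93A/Clec7a-KO replicate 4 and at most 4.22 CPM elsewhere. Whether the share of cluster 25 went with Xist or with the transgene was not tested. Inside cluster 16, led by Aqp4 and Slc4a4, SOD1G93A/Clec7a-KO (3 libraries) against Clec7a-KO (3) gave 4 of 46 members higher, where 8.72% of genes rose. These were Psmb8 (2.63 ± 0.43, edgeR, adjusted p = 0.0011), Psmb9 (2.47 ± 0.47), Psme1 (1.19 ± 0.25) and Psme2 (0.98 ± 0.26).

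UMIs of microglial marker genes were also found in these classes, and more of them in libraries with the transgene. The summed level of 12 microglial marker genes in astrocyte-like cells, as a share of that in microglia-like cells of the same library, was 0.480% to 1.06% in nTg, 0.542% to 2.24% in Clec7a-KO, 3.66% to 10.9% in SOD1G93A and 5.5% to 25.3% in SOD1G93A/Clec7a-KO. All 12 markers had a higher mean with the transgene, and 0 of them were at 0. In plain CPM, Psmb8 averaged 50.2 ± 21.9 (SD, n = 3) in astrocyte-like cells of SOD1G93A, where that share of the microglial Psmb8 level is 21.1 CPM, and 66.4 ± 32.8 (n = 4) in SOD1G93A/Clec7a-KO, where it is 44.4 CPM. It averaged 8.63 ± 1.74 CPM (n = 3) in nTg, where the share is 1.48 CPM. In single libraries the measured level was 1.17 to 2.99 times the share with the transgene and 3.43 to 10.7 times without it. For Psmb5 the measured level was at least 7.11 times the share in every library. In ependymal-like cells the marker share was 2.35% to 7.54% in SOD1G93A and 0.378% to 0.530% in nTg, and Psmb8 averaged 34.5 CPM against a share of 13.6 CPM in SOD1G93A. The part of these UMIs in the results above was not tested.

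**Figure D5:**
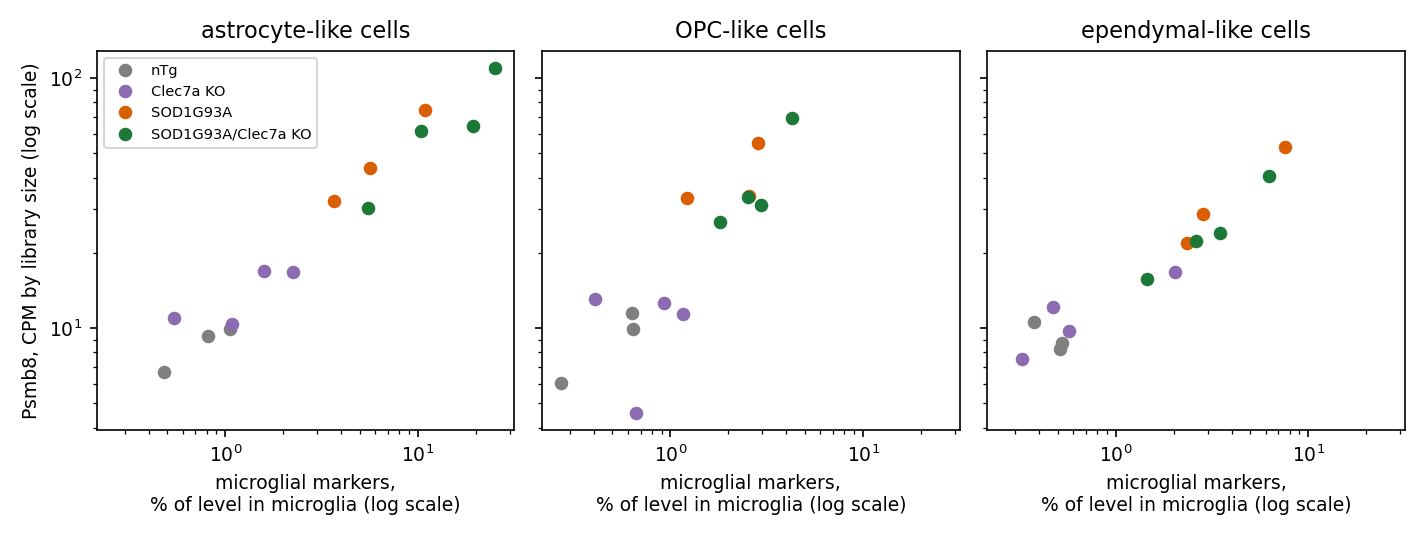
Psmb8 in plain CPM (log axis) against the summed level of 12 microglial markers in the same cells, as a percentage of their level in microglia-like cells (log axis), one point per library, for 3 classes that should lack these markers. In astrocyte-like cells the libraries with the transgene lie at 3.66% to 25.3% of the marker level and the others at 0.480% to 2.24%.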

How the data were processed

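Raw UMI counts per gene and barcode were used as deposited by the authors. Per the submitters' processing notes, Cell Ranger 3.0.2, mm10, Seurat and DESeq2 were used, and the role of each is not given in the sources used here. The members and the gene lists were chosen with earlier results of these data known. Of 108892 barcodes, 7127 with under 500 genes or 1000 UMIs, 4963 with over 15% mitochondrial UMIs and 7046 called as doublets by Scrublet were removed, which left 89756 cells. These were clustered with scanpy 1.11.5 on 2000 variable genes without the members (30 components, 15 neighbours, Leiden resolution 1.0), giving 26 clusters. A cluster took a class name when at least 3 of that class's markers were detected, and no second class scored above 5 (mean log2 of its markers against the lower quartile of clusters). That limit was set after seeing the data; it left the border-associated macrophage cluster named, with microglia at 4.73 against 6.06. Cluster 12, a mix of endothelial and mural markers at 7.18 and 5.90 (3671 cells), was left unnamed. It held 5.504% and 6.13% of cells in nTg and Clec7a-KO and 3.13% and 2.47% in SOD1G93A and SOD1G93A/Clec7a-KO.

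For each class the UMIs of a library were added up and fitted with edgeR 4.0.16 (glmQLFit and glmQLFTest, R 4.3.3) over all 4 groups together, after a filter on low counts, with an adjusted p threshold of 0.05. Standard errors were derived from the log2 fold change and the F statistic. Microglia-like UMIs were 10848252 to 100783629 and cells 1017 to 7565 per library. DESeq2 1.42.0, RLE scaling, no filter, a replicate block, Xist and library number as covariates, coarser clusters, a mitochondrial limit of 5% and leaving out each library were alternatives. Scaling by total UMIs, leaving out the libraries numbered 13, 15 and 16, the subunit ratios and the fits inside clusters were added after seeing the data. On simulated counts for SOD1G93A against nTg in microglia-like cells (16715 genes), the test recovered 0% of changes of 0.5 log2 units and 26% of changes of 1, with 2 false calls. In the data, 36 of 49 members were called in this comparison at a members' median of 0.64. The simulated setting therefore differs from the data, and these rates do not carry over to it. Named with values were the active-site subunits, Psme1 to Psme4, Psmf1, and of the other members those called, at most 10 a direction in microglia-like and 5 in other cells. Members named outside this rule were chosen after their values were seen. Gene positions are from GENCODE vM21 (50 of 50 members matched). Single results for some genes of the context lists are not reported here.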

Additional observations from a re-analysis of the deposited data

Results flagged for a closer look

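In 88 groups of 4 libraries the highest or lowest library was compared with the rest by its gap over the whole range, a rule that chance meets in about 1 of 20 groups. It was met 3 times, each by Clec7a-KO replicate 4, the library numbered 16. Psmb5 stood at 95.63 CPM in microglia-like cells of that library and at 59.46 to 64.04 CPM in the other 3. Psmb7 stood at 44.65 CPM there and at 70.47 to 75.66 CPM in the others. Psmb5 in astrocyte-like cells stood at 188.3 CPM there and at 115.3 to 125.6 CPM in the others.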

How the results depend on the processing

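Counts are members called, with edgeR unless said otherwise. In microglia-like cells SOD1G93A against nTg gave 18 with Xist as a covariate, 11 by total UMIs and 22 to 38 with 1 library left out. SOD1G93A/Clec7a-KO against Clec7a-KO gave 13 by total UMIs and 35 to 41 with 1 library left out, and DESeq2 gave 41 higher and 1 lower. In ependymal-like cells the first comparison gave 3 without the filter, 0 with Xist and 1 to 2 with 1 library left out, and the second 4, 0 and 0 to 4, with 1 at the 5% mitochondrial limit and 0 without libraries 13, 15 and 16. In astrocyte-like cells the first gave 6 with Xist, 12 at the 5% limit and 13 to 24 with 1 library left out, and the second 8 without the filter, 5 at the 5% limit and 6 to 15. The cause was not tested. By total UMIs Psme3 turned to −0.068 and −0.028 in microglia-like cells. Against microglia-like cells, total UMIs turned Psmb6 (0.20), Psme3 (0.36), Psme1 (0.02), Psmd8 (0.12), Psmd10 (0.20), Psmd12 (0.21) and Psmd14 (0.29) in endothelial-like, Psmb7 (0.44), Psme4 (0.38), Psme3 (0.51) and Psmc2 (0.033) in ependymal-like and Psmf1 (0.47) in astrocyte-like cells, where Psmb5 turned to −0.026 without the filter. Of the values of single genes under the alternatives, 6140 stayed on their side of the threshold, 168 lost the call and 69 gained it. Another 15, called in the main fit, changed sign. Changes of sign in values not called in the main fit were not counted. By total UMIs, Psmf1 in microglia-like cells of SOD1G93A against nTg was one of them (0.43 to −0.02). The replicate block gave 37 and 43 members in microglia-like, 3 and 3 in ependymal-like and 24 and 14 in astrocyte-like cells. For the replicate block, the fits without the filter and DESeq2, the share of all genes called is not given here. These counts therefore have no background beside them. For fits with 1 library left out, that share is given only where printed above. Same-numbered libraries of different groups had correlations of −0.33 to 0.57 (median 0.15, 11 of 19 pairs over 0.1). Pairs with different numbers had −0.68 to 0.68 (median −0.06, 19 of 54 over 0.1). These ranges overlapped, and the numbers were not taken to pair libraries.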
